A study of Mus musculus with 14 samples.

Results

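Txnip and 9 further genes of glucose entry were followed through the myodifferentiation of C2C12 cells, an established mouse line of skeletal muscle myoblasts. The genes were taken by their symbols in the deposited gene table: Txnip, its relatives Arrdc2 and Arrdc3, the glucose-sensing factors Mlxip and Mlxipl, the transporter genes Slc2a1, Slc2a3 and Slc2a4, and the hexokinase genes Hk1 and Hk2. They are 10 of the 49671 genes in the table. The set was selected on a measured value, the low CPM of Txnip in the DM2 medium at day 7, so every value of those libraries is given here as a description, with no test.

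The study sequenced poly(A) RNA from 14 libraries, 2 in each of 7 groups. Day 0 cells were in growth medium with 20% fetal calf serum (FCS) and, per the labels, 4.5 g/L glucose. The other cells were moved to 1 of 3 differentiation media, which were replaced on alternate days, and taken at day 2 or day 7. DM1 held 2% horse serum (HS). DM2 held 10% FCS with an adipogenic cocktail of 1 µg/ml insulin, 0.5 mM IBMX (a phosphodiesterase inhibitor), 0.5 µM dexamethasone (a glucocorticoid) and 2 µM rosiglitazone (a PPAR-gamma agonist). DM3 held 2% HS as in DM1 and the cocktail as in DM2. DM3 against DM1 thus changes the cocktail at the same serum, while from DM2 to DM3 the serum differs in both kind and amount. The glucose content of the differentiation media is not given in the sources used here. All groups are 1 cell line, and nothing in the labels says that the 2 libraries of a group came from separate cultures, so a p-value here speaks only to how far these libraries scatter, and that scatter may be technical.

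TXNIP is an alpha-arrestin, a family of adaptor proteins that draw membrane proteins into the cell. It pulls the glucose transporters GLUT1 (Slc2a1) and GLUT4 (Slc2a4) from the surface and also binds thioredoxin. Its gene is switched on by glucose: glucose 6-phosphate, made by hexokinases, brings MondoA (Mlxip) or ChREBP (Mlxipl), each paired with MLX, to carbohydrate response elements in the Txnip promoter. In muscle, insulin and contraction move GLUT4 to the surface, and hexokinase II (Hk2) is the isoform that marks mature, insulin-responsive fibres.

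The Txnip promoter is shown because the glucose-responsive site of that background lies in it, next to the start of the gene whose level set the choice of members. It is the stretch of 250 bases before the RefSeq start on GRCm38.p6, chr3:96557707-96557956, plus strand, and the capitals mark 2 copies of the site CACGNG parted by 5 bases.

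Txnip: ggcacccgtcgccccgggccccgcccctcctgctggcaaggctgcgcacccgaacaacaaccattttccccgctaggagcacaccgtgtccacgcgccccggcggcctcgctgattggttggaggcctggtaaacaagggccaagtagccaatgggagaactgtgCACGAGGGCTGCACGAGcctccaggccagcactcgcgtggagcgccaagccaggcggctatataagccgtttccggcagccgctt

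The paired sites lay 85 to 69 bases before the start. Searched on both strands with any base at N and any 5 bases between the copies, the pattern was in 16 of 32851 RefSeq promoters of 300 bases (250 before and 50 after a start), or 0.0487%, which belong to 15 genes. Of the 10 genes, 8 had a promoter in that table, 12 promoters in all, and the Txnip promoter was the only 1 of these 12 with the pattern. The plain E-box CACGTG, which is 1 copy of the site CACGNG with T at N, was in 7.15% of all promoters. It was in 1 of the 2 promoters of Mlxipl. The CCAAT box, written CCAAT and searched on both strands, was in 37.4% of all promoters and in a promoter of each matched gene except Hk1. A match describes the letters, and no binding was measured here.

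The libraries held 21907617 to 29784885 expected counts and 17750 to 21111 genes with a count. Levels are CPM relative to the TMM-scaled library size, and 3 counts were worth 0.102 to 0.132 CPM. A change was called at a Benjamini-Hochberg adjusted p under 0.05, over 15973 genes, in the quasi-likelihood F test of edgeR, and ± after a log2 fold change is its standard error (SE). Of the 10 genes, 9 passed the low-count filter and Mlxipl did not. The second library of DM3 at day 2 stood apart: it had the fewest genes with a count. Its rank correlation with its partner was 0.962, against 0.988 to 0.995 in the other groups. Of its expected counts 4.18% were not whole numbers, against 9.66% to 10.5% in the other libraries, and the cause was not tested. In bulk RNA, fewer cells of a type and less RNA per cell cannot be told apart. Summed over 9 muscle differentiation markers, the level was 825 to 958 CPM at day 0, 22502 to 23899 CPM in DM3 at day 7 and at most 2244 CPM in any other library. Adipocyte markers stayed low in all groups: their 8 genes summed to 13.1 to 28.5 CPM, Lep was at 0 everywhere, and 1 or 2 of the 8 were above 1 CPM.

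Txnip (chromosome 3, 96557957 to 96561883, plus strand, GRCm38) was detected in every library. Its 2 libraries read 60.2 and 71.4 CPM at day 0, 180 and 209 CPM in DM1 at day 2, and 681 and 818 CPM in DM1 at day 7. In DM3 they read 478 and 365 CPM at day 2 and 464 and 466 CPM at day 7. In DM2 they read 517 and 578 CPM at day 2 and then 1.20 and 1.40 CPM at day 7, from 32 and 36 counts. From low to high the groups ran DM2 day 7, day 0, DM1 day 2, DM3 at both days, DM2 day 2 and DM1 day 7, and among these neighbours only the 2 DM3 groups overlapped. The exons of Txnip overlap the antisense gene Gm15441, which stayed at or under 0.344 CPM in all libraries, and whether the counting used strand is not given in the sources used here.

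Leaving aside DM2 at day 7, Txnip was higher than at day 0 in every differentiation group, and each of these 5 changes passed the test. In DM1 it rose by a log2 fold change of 1.56 ± 0.15 at day 2 (adjusted p = 1.24e-05) and by 3.51 ± 0.16 at day 7 (adjusted p = 4.89e-09). With the cocktail the rise at day 2 was already larger than that of DM1 at day 2: it was 3.06 ± 0.15 in DM2 (adjusted p = 3.99e-08) and 2.68 ± 0.15 in DM3 (adjusted p = 4.58e-08) at day 2, and 2.82 ± 0.15 in DM3 at day 7 (adjusted p = 1.07e-08). Between day 2 and day 7 Txnip rose further in DM1, by 1.95 ± 0.15 (adjusted p = 1.08e-06), while in DM3 the difference was 0.14 ± 0.14 (adjusted p = 0.435). The difference made by the cocktail had opposite signs at the 2 days. Against DM1, Txnip was higher in DM3 by 1.12 ± 0.14 at day 2 (adjusted p = 8.21e-05) and lower by 0.69 on the log2 scale at day 7 (-0.69 ± 0.14, adjusted p = 0.00165). The change of that difference from day 2 to day 7 was itself tested and was -1.80 ± 0.20 (adjusted p = 4.15e-05).

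Other markers moved over the same groups. The 8 proliferation markers summed to 2874 to 2886 CPM at day 0, 1904 to 1937 CPM in DM1, 1774 to 1880 CPM in DM2 and 1283 to 1304 CPM in DM3 at day 2, 631 to 680 CPM in DM1 at day 7, 592 to 622 CPM in DM3 at day 7 and 1208 to 1223 CPM in DM2 at day 7. The 4 fibroblast markers, of which Thy1 was at 0 in all libraries, summed to 1235 to 1479 CPM in DM1 at day 7, where Txnip was highest, and to at most 395 CPM elsewhere. Their part in the Txnip levels was not tested.

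**Figure D1:**
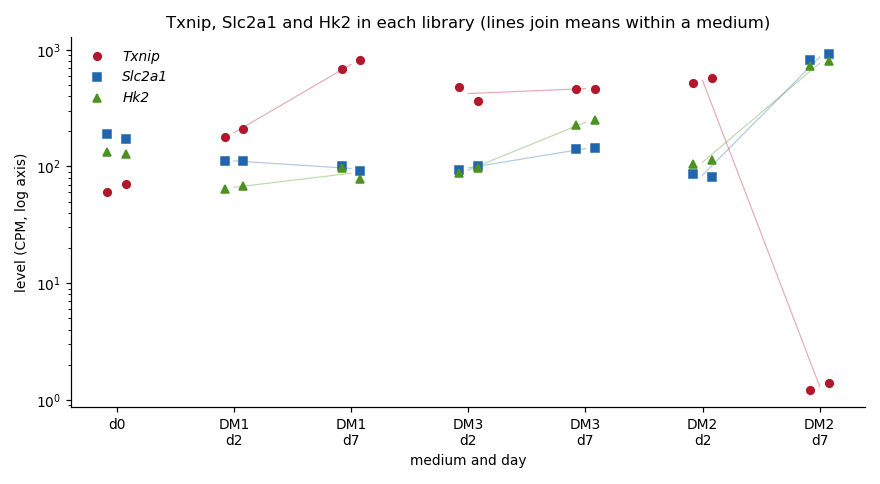
CPM of Txnip (circles), Slc2a1 (squares) and Hk2 (triangles) in each of the 14 libraries on a log axis, by group, with points for libraries and lines that join the group means of 1 medium at day 2 and day 7. In DM2 Txnip goes from 517 and 578 CPM at day 2 to 1.20 and 1.40 CPM at day 7, while Slc2a1 goes from 86.9 and 81.6 CPM to 814 and 920 CPM and Hk2 from 104 and 113 CPM to 731 and 807 CPM.

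At day 7 in DM2, the value that chose the genes, Txnip was 50.4-fold below day 0, and 574-fold and 356-fold below DM1 and DM3 of the same day. Over the 15973 genes tested, 55.4% were called between DM2 at day 7 and day 0, 54.8% between DM2 at day 7 and day 2, 57.8% between DM2 and DM1 at day 7 and 52.7% between DM3 and DM2 at day 7. Since these contrasts fixed the choice, the members' values in them are given as a description only.

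Arrdc2 and Arrdc3 encode alpha-arrestins of the same family as TXNIP, and the 2 genes covered different ranges. Arrdc2 read 5.37 and 4.70 CPM at day 0, 6.34 and 6.23 CPM in DM1 at day 2, and 14.5 and 15.9 CPM in DM1 at day 7. With the cocktail it read 19.8 and 20.5 CPM in DM3 at day 2, 20.6 and 20.5 CPM in DM3 at day 7, and 23.5 and 19.5 CPM in DM2 at day 2. In DM2 at day 7 it read 6.70 and 7.00 CPM, a little above day 0. Both libraries of day 0 were below all others, and no library of a cocktail group other than DM2 at day 7 was below 19.5 CPM.

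The rise of Arrdc2 over day 0 was 2.09 ± 0.12 in DM2 at day 2 (adjusted p = 7.79e-08), 2.03 in DM3 at day 7 (adjusted p = 2.02e-08) and 1.59 ± 0.12 in DM1 at day 7 (adjusted p = 2.9e-07) on the log2 scale. DM3 exceeded DM1 by 1.68 ± 0.12 at day 2 (adjusted p = 6.96e-07) and by 0.44 at day 7 (adjusted p = 0.00638). The latter call was lost when libraries were scaled by their totals alone (0.20, adjusted p = 0.129) and without replicate 1 of DM1 at day 7 (0.37, adjusted p = 0.0526). The cocktail difference of Arrdc2 shrank from day 2 to day 7 by a tested -1.25 ± 0.16 (adjusted p = 0.000112), the same sign as for Txnip.

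Arrdc3 covered a narrow range, from 20.0 to 34.3 CPM over the 6 groups other than DM2 at day 7, where it read 58.2 and 40.0 CPM. It was called higher than day 0 in DM1 at day 2 (0.65 ± 0.19, adjusted p = 0.0241), at day 7 of the same medium (0.51, adjusted p = 0.0426) and in DM2 at day 2 (0.57, adjusted p = 0.0276). All 3 calls were lost when either 1 of the 2 day 0 libraries was left out, with adjusted p = 0.0816 to 0.161, and all 3 without a low-count filter. Arrdc1, a further alpha-arrestin, read 9.54 to 9.73 CPM at day 0 and was lower in DM3 than in DM1 at day 7 (-1.13 ± 0.19, adjusted p = 0.000389). Arrdc4, the alpha-arrestin that is also a Mondo target, was at most 0.361 CPM in any library and was not tested.

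Of the glucose sensors, only MondoA was measurable. Mlxip (MondoA) lay between 34.9 and 54.8 CPM in all 14 libraries, the smallest relative range of the 10 genes. Its libraries read 51.8 and 49.7 CPM at day 0, 34.9 and 37.6 CPM in DM1 at day 7, and 46.6 and 44.0 CPM in DM2 at day 7. Mlxip was lower in DM1 at day 7 than at day 0 by 0.49 on the log2 scale (-0.49 ± 0.12, adjusted p = 0.00355). Mlxip was also called lower than day 0 in DM1 at day 2 (-0.34, adjusted p = 0.0455). It was called higher in DM3 than in DM1 at day 2 (0.36, adjusted p = 0.0298) and day 7 (0.38, adjusted p = 0.0167). All 3 calls were lost under library totals alone. The DM1 day 2 call was also lost with RLE scaling, with DESeq2 and without the DM2 day 7 libraries. The DM3 call at day 2 was also lost in a fit of the compared groups alone. With 1 library left out the values were -0.37 to -0.31, 0.26 to 0.45 and 0.26 to 0.49, and each lost its call in at least 1 run. Mlxipl (ChREBP) was at 0 counts in 10 of the 14 libraries and at 3 or fewer in the others.

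**Figure D2:**
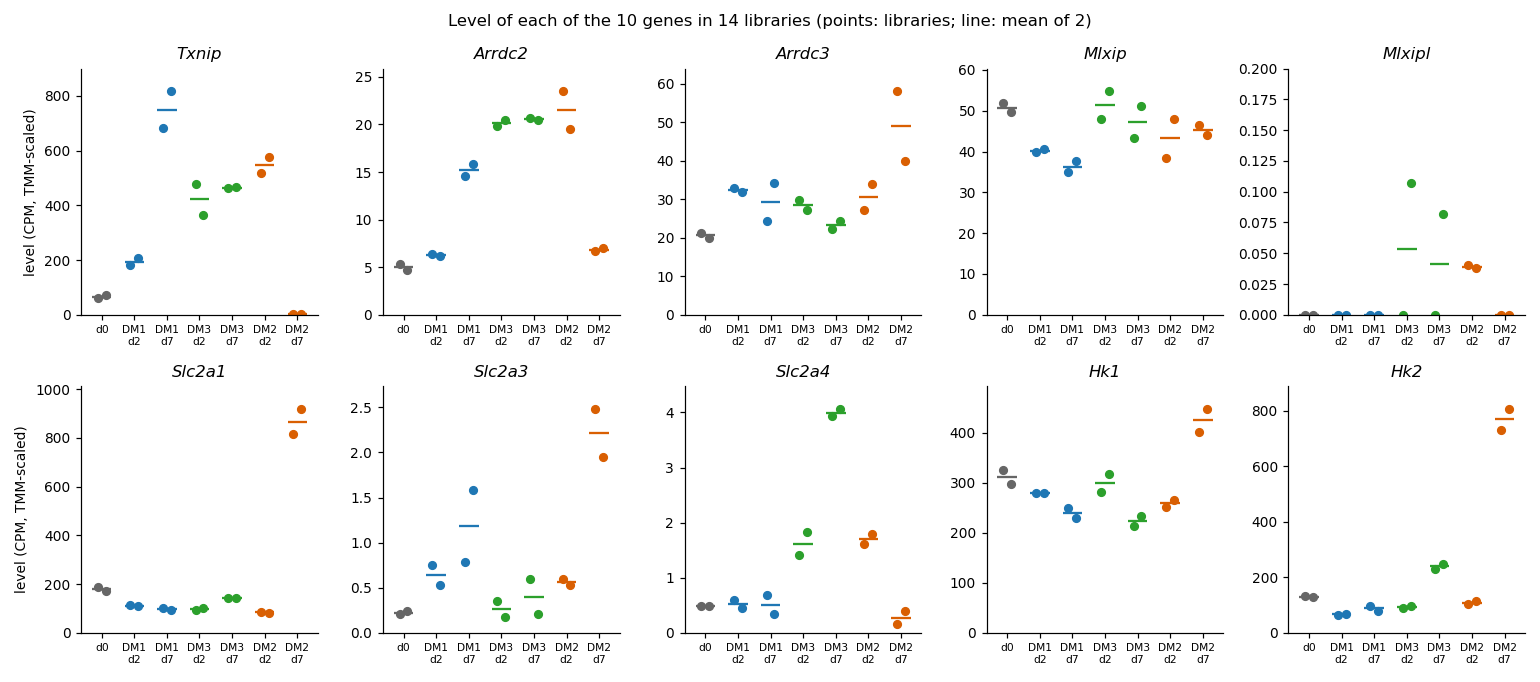
CPM of each of the 10 genes in the 14 libraries, 1 panel a gene, by group; points are libraries and bars mark group means. Txnip is lowest in DM2 at day 7, Slc2a1 and Hk2 are highest there, Slc2a4 peaks in DM3 at day 7, Mlxip stays between 34.9 and 54.8 CPM and Mlxipl stays at or near 0.

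Slc2a1, which encodes GLUT1, the transporter of basal glucose uptake, fell on leaving growth medium. Its libraries read 189 and 171 CPM at day 0, 112 and 111 CPM in DM1 at day 2, and 101 and 91.3 CPM in DM1 at day 7. In DM3 they read 92.9 and 102 CPM at day 2 and 141 and 144 CPM at day 7. In DM2 they read 86.9 and 81.6 CPM at day 2 and 814 and 920 CPM at day 7. DM2 at day 2 was the lowest group and DM2 at day 7 the highest, with no overlap with any other group. DM1 at day 7 and DM3 at day 2 overlapped each other.

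All 5 tested groups were below day 0 in Slc2a1, by log2 fold changes from -1.09 ± 0.09 in DM2 at day 2 (adjusted p = 1.64e-06) to -0.34 in DM3 at day 7 (adjusted p = 0.00701). The DM3 day 7 call was lost without replicate 1 of day 0 (-0.26, adjusted p = 0.0723). In DM3 Slc2a1 rose again between day 2 and day 7, by 0.55 ± 0.09 (adjusted p = 0.000378), and at day 7 it was above DM1 by 0.57 ± 0.09 (adjusted p = 0.000287). At day 2 no difference between DM3 and DM1 was called, and the change of the cocktail difference over time was 0.77 ± 0.13 (adjusted p = 0.000765), opposite in sign to that of Txnip. Slc2a1 was called lower in DM3 than in DM1 at day 2 by DESeq2 (-0.22, adjusted p = 0.0492) and by edgeR with library totals alone (-0.27, adjusted p = 0.0236).

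Slc2a4, which encodes GLUT4, the transporter that insulin moves to the surface, was scarce in all groups. It read 0.488 and 0.477 CPM at day 0 (14 counts in each library), 0.588 and 0.450 CPM in DM1 at day 2, and 0.677 and 0.334 CPM in DM1 at day 7. With the cocktail it read 1.41 and 1.83 CPM in DM3 at day 2, 1.60 and 1.79 CPM in DM2 at day 2, and 3.93 and 4.07 CPM in DM3 at day 7. In DM2 at day 7 it read 0.151 and 0.389 CPM, from 4 and 10 counts. Day 0 and the 2 DM1 groups overlapped, as did DM2 and DM3 at day 2, and both libraries of DM3 at day 7 were above all others.

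Slc2a4 rose over day 0 by a log2 fold change of 1.81 ± 0.41 in DM2 at day 2 (adjusted p = 0.00284), 1.74 ± 0.41 in DM3 at day 2 (adjusted p = 0.00343) and 3.04 ± 0.41 in DM3 at day 7 (adjusted p = 3.78e-05). In DM1 the differences from day 0 were 0.10 at day 2 and 0.08 at day 7 (adjusted p = 0.896 at day 7). DM3 exceeded DM1 by 1.64 ± 0.41 at day 2 (adjusted p = 0.00776) and by 2.96 ± 0.41 at day 7 (adjusted p = 8.49e-05). Without replicate 2 of DM1 at day 2 the first of these had an adjusted p of 0.069, and without replicate 1 of DM1 at day 7 the second was 3.56. The step from day 2 to day 7 in DM3, 1.30 ± 0.37 (adjusted p = 0.0122), missed the threshold without replicate 2 of DM3 at day 7 (adjusted p = 0.0533). The markers of muscle differentiation were highest in the same DM3 day 7 libraries, at 22502 to 23899 CPM in sum, and their part in the Slc2a4 level was not tested.

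Slc2a3, which encodes GLUT3, a high-affinity transporter best known from neurons, rested on 5 to 38 counts a library outside DM2 at day 7. There it had its highest level, 2.48 and 1.95 CPM (66 and 50 counts), against 0.209 and 0.238 CPM at day 0. It was above day 0 in DM1 at day 7 by 2.37 ± 0.55 (adjusted p = 0.00305), with 0.784 and 1.59 CPM, and this was 1.79 without replicate 2 of that group. Its lower level in DM3 than in DM1 at day 7 (-1.56 ± 0.53, adjusted p = 0.0282) was not called by DESeq2 (adjusted p = 0.0628). The value was -0.97 without replicate 2 of DM1 at day 7 and -0.99 without replicate 2 of DM3 at day 7, and each of these runs lost the call. It was -2.49 without replicate 1 of DM3 at day 7.

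Per length of transcript, as TPM computed over exon unions, GLUT1 made up most of the transporter transcripts in every group. Slc2a1 was 90.1% and 90.8% of the TPM of 12 Slc2a genes at day 0, 72.4% to 80.9% in the libraries of the other groups apart from DM2 at day 7, and 96.4% and 96.6% there. Slc2a4 was 0.235% and 0.256% of that TPM at day 0, 2.12% and 2.18% in DM3 at day 7, and 0.018% and 0.041% in DM2 at day 7. The GLUT4 share was thus highest in DM3 at day 7, yet GLUT1 transcripts outnumbered it there, at 75.4% and 76.4%.

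Hexokinases trap glucose in the cell as glucose 6-phosphate. Hk1, the housekeeping isoform, varied little: it read 326 and 297 CPM at day 0, from 214 to 317 CPM in the 5 other groups tested, and 402 and 447 CPM in DM2 at day 7. Hk1 was lower than at day 0 in DM3 at day 7 (-0.48, adjusted p = 0.000788), in DM1 at day 7 (-0.38, adjusted p = 0.00461) and in DM2 at day 2 (-0.27, adjusted p = 0.0313). Without replicate 1 of day 0 the DM1 and DM2 calls were lost, at -0.31 and -0.20. The DM2 call was also lost without a low-count filter (-0.25, adjusted p = 0.0889) and in a fit of the compared groups alone (-0.27, adjusted p = 0.101). It was lost without replicate 1 of DM2 at day 2 as well (-0.28). In DM3 it fell between day 2 and day 7 by 0.42 on the log2 scale (adjusted p = 0.00287).

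Hk2, the isoform that insulin and exercise raise in muscle, moved far more. It read 133 and 128 CPM at day 0, 64.1 and 68.4 CPM in DM1 at day 2, and 97.1 and 77.9 CPM in DM1 at day 7. In DM3 it read 88.6 and 98.0 CPM at day 2 and 229 and 249 CPM at day 7. In DM2 it read 104 and 113 CPM at day 2 and 731 and 807 CPM at day 7. Hk2 in DM3 at day 7 was above every library except those of DM2 at day 7.

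The test gave a fall of Hk2 below day 0 in DM1 at day 2 (-0.98 ± 0.11, adjusted p = 5.18e-05). Lower levels than at day 0 were also called in DM1 at day 7 (-0.58 ± 0.11, adjusted p = 0.000765) and in DM3 at day 2 (-0.48 ± 0.11, adjusted p = 0.00277). A rise above day 0 was called in DM3 at day 7 (0.87 ± 0.11, adjusted p = 2.17e-05). In DM2 at day 2 edgeR called no change (-0.26, adjusted p = 0.0645), while DESeq2 did (-0.25, adjusted p = 0.0484). DM3 exceeded DM1 by 0.49 at day 2 (adjusted p = 0.00396) and by 1.45 ± 0.11 at day 7 (adjusted p = 7.04e-07), and the gap widened by a tested 0.96 ± 0.16 (adjusted p = 0.000585). Within DM3 Hk2 rose from day 2 to day 7 by 1.36 ± 0.11 (adjusted p = 1.34e-06). In DM1 that step was 0.40 (adjusted p = 0.014) and lost its call without replicate 1 of DM1 at day 7 (0.23, adjusted p = 0.151) or at day 2 (0.36, adjusted p = 0.103).

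The balance of the 2 hexokinases per length shifted with it. Hk2 was 36.9% and 38.1% of the summed TPM of Hk1 and Hk2 at day 0. In DM1 the share was 24.7% and 26.0% at day 2, then 35.8% and 32.7% at day 7. It was 31.1% and 30.6% in DM3 at day 2, 60.5% in both DM3 libraries at day 7, and 37.3% and 37.9% in DM2 at day 2. In DM2 at day 7 it was 72.2% and 72.1%. Per length of exon union, Hk2 exceeded Hk1 in DM3 and DM2 at day 7 and in no other group. In DM3 at day 7 the CPM were close, at 229 and 249 for Hk2 against 214 and 233 for Hk1. The share there thus rests largely on the lengths used, 5969 bases for Hk2 and 8532 for Hk1. A union of exons can be longer than the transcripts present, whose lengths were not measured. Adpgk, whose enzyme phosphorylates glucose with ADP, was lower in DM3 than in DM1 at day 2 (-0.66 ± 0.07, adjusted p = 1.81e-05). The hexokinase genes Hk3 and Hkdc1 were at most 0.0778 CPM in any library.

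**Figure D3:**
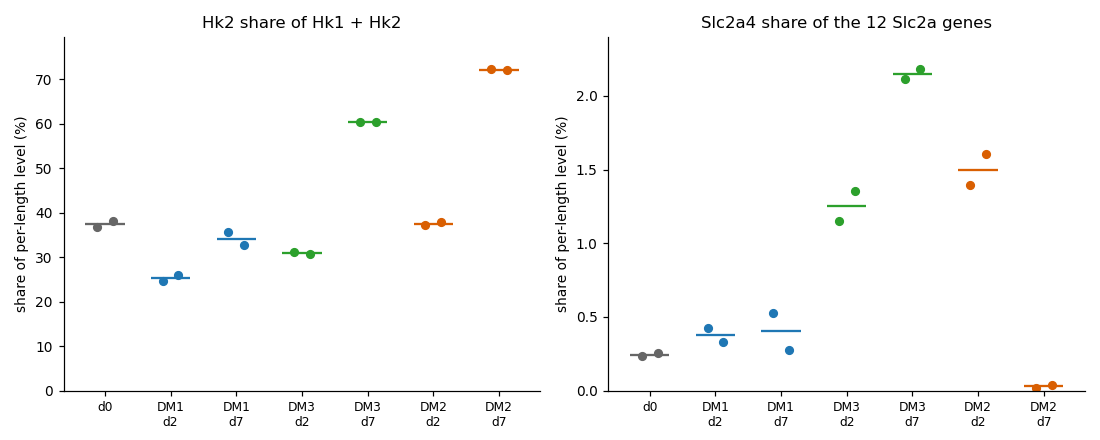
Shares in percent of the level per length (TPM), by group: Hk2 of Hk1 and Hk2 (left) and Slc2a4 of 12 Slc2a genes (right), with points for libraries and bars for group means. Hk2 is at 60.5% in DM3 and at 72.2% and 72.1% in DM2 at day 7, and Slc2a4 is highest in DM3 at day 7, at 2.12% and 2.18%.

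The cocktail's effect at constant serum can be read over all 9 tested genes. At day 2, 37% of all tested genes were called between DM3 and DM1, and 17.6% were called higher in DM3. Of the 9 genes, 5 were called, all higher in DM3: Txnip, Arrdc2, Mlxip, Slc2a4 and Hk2. Without replicate 2 of DM1 at day 2, 3 were called. At day 7, 7 of the 9 were called, against 47.7% of all genes. Arrdc2, Mlxip, Slc2a1, Slc2a4 and Hk2 were higher in DM3, and Txnip and Slc2a3 lower. Leaving out replicate 1 of DM1 at day 7 lost the Arrdc2 and Mlxip calls. Leaving out replicate 2 of DM3 at day 7 lost those of Mlxip and Slc2a3, and replicate 2 of DM1 that of Slc2a3. The change of the difference between the days was called for 4 of the 9 genes, against 34.9% of all genes. It was negative for Txnip and Arrdc2 and positive for Slc2a1 and Hk2, while for Slc2a4 it was 1.32 (adjusted p = 0.0962). Scaling by library totals alone moved the median of all genes between DM3 and DM1 at day 7 from 0.00 to -0.23 and the share of calls that were higher from 47.5% to 27.3%. Under it Txnip and Slc2a3 stayed lower in DM3 at day 7 and Slc2a1, Slc2a4 and Hk2 higher, Arrdc2 and Mlxip lost their call, and Arrdc3 (-0.57, adjusted p = 0.033) and Hk1 (-0.34, adjusted p = 0.00656) were called lower, so 3 of the 9 were higher and 4 lower. At day 2 it took away the Mlxip call and called Slc2a1 lower.

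Serum was compared at constant cocktail. Between DM3 and DM2 at day 2, edgeR called 0 of the 9 genes, against 16.3% of all genes. That share, 2602 genes, was not steady: 4177 and 1207 genes were called without replicate 1 and 2 of DM3 at day 2, 1131 without replicate 1 of DM2 at day 2, and 488 in a fit of the compared groups alone. At an unadjusted p under 0.05 there were 3, and DESeq2 called 1, Txnip (-0.40, adjusted p = 0.0283). The edgeR value of Txnip was -0.38 (adjusted p = 0.0923), and it was -0.58 (adjusted p = 0.0133) without replicate 1 of DM3 at day 2. At day 7, described only, DM3 and DM2 stood 356-fold apart in Txnip.

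**Figure D4:**
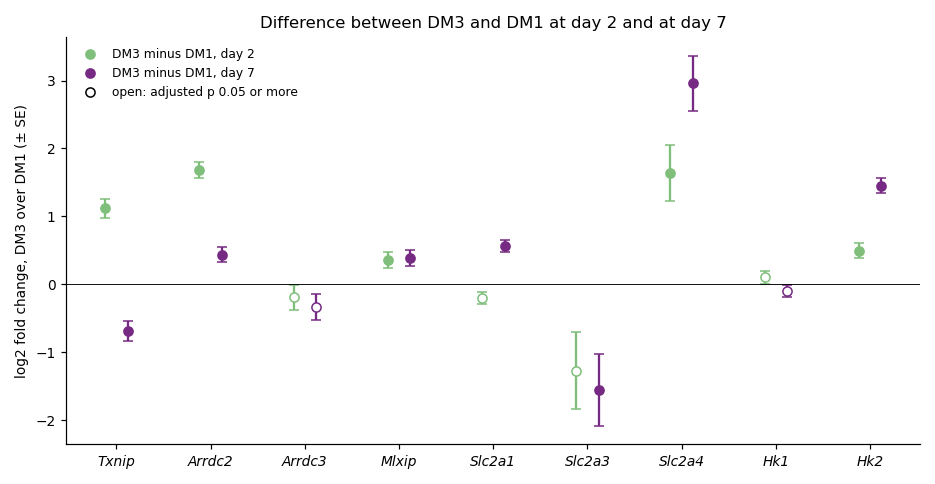
Log2 fold change of DM3 over DM1 at day 2 and at day 7 for the 9 tested genes, with bars of 1 SE and open points where the adjusted p was 0.05 or more. Txnip crosses from 1.12 to -0.69, Arrdc2 shrinks from 1.68 to 0.44, and Slc2a4 and Hk2 reach 2.96 and 1.45 at day 7.

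Against day 0, the genes called were 5 of 9 in DM1 at day 2 (29.7% of all genes), 8 in DM1 at day 7 (53.5%), 6 in DM2 at day 2 (49.7%), 5 in DM3 at day 2 (50.9%) and 6 in DM3 at day 7 (59%). From day 2 to day 7, 3 of 9 were called in DM1, all higher (34.3% of all genes called, 16.8% called higher), and 4 in DM3 (47.9%). The genes called in each of the 5 comparisons with day 0 were Txnip, always higher, and Slc2a1, always lower. Leaving out any 1 library of day 0 or of DM1 at day 2 brought the DM1 day 2 count from 5 to 3.

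Genes around the 10 were read from lists of the pathway. The counts of each list between DM3 and DM1 stand beside 37% of all tested genes called at day 2 (17.6% called higher) and 47.7% at day 7, and the medians beside all-gene medians of -0.02 and 0.00. In the Mondo network (MLX and its partners and the Max and Mxd family), 9 of 9 genes were tested. Between DM3 and DM1 at day 7, Mlx rose (0.86 ± 0.11, adjusted p = 5.37e-05) while Mxd4 (-0.91 ± 0.09, adjusted p = 4.24e-06) and Mxd3 fell, and the list's median was -0.10; by library totals 5 fell. The Mxd3 call was lost under DESeq2, in a fit of the compared groups alone and without replicate 1 of DM1 or replicate 2 of DM3. Mlx, the obligate partner of MondoA and ChREBP, read 22.7 to 26.3 CPM at day 0, 18.8 to 21.5 CPM over the day 2 groups, 14.1 to 15.4 CPM in DM1 at day 7, 25.2 to 28.5 CPM in DM3 at day 7 and 36.8 to 43.9 CPM in DM2 at day 7. Myc, which competes with Mondo factors through the same network, read 84.5 to 92.9 CPM at day 0, 46.4 to 80.0 CPM over the day 2 groups and a mean of 197 CPM in DM2 at day 7.

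Other genes known to respond to glucose through Mondo factors went in both directions. Of 8 listed, 6 were tested. Against day 0, Hbp1 and Klf11 rose and Klf10 and Kctd9 fell in DM1 at day 7, so 2 rose and 2 fell, where 53.5% of all genes were called. In DM1 at day 2, 2 rose and 0 fell (29.7% of all genes called). In DM2 and in DM3 at day 2, 3 rose and 2 fell (49.7% and 50.9%), and in DM3 at day 7, 4 rose and 2 fell (59%). Between DM3 and DM1 at day 7, 2 rose and 1 fell, and the median was 0.12; by library totals 1 rose and 2 fell. Gpd1, which turns a glycolytic intermediate into glycerol 3-phosphate, was among those that rose (2.03 ± 0.50, adjusted p = 0.00535). Klf10, a repressor, was lower in DM3 than in DM1 at day 2 (-1.27 ± 0.09, adjusted p = 6.3e-07). It was lower at day 7 too (-0.81 ± 0.09, adjusted p = 1.02e-05), with means of 23.1 CPM in DM3 and 40.6 CPM in DM1, and in DM2 they were 33.6 CPM at day 2 and 23.8 CPM at day 7.

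Of 16 genes of GLUT4 vesicle traffic, all tested, 7 were higher and 1 was lower in DM3 than in DM1 at day 2, against 37% of all genes called, with a median log2 fold change of 0.27 beside -0.02 over all genes; scaling by totals alone made that 4 lower. Tbc1d4 (AS160), the Rab regulator that AKT phosphorylates to release GLUT4 vesicles, rose by 1.99 ± 0.11 (adjusted p = 1.36e-07). Sort1 (sortilin), which forms those vesicles, rose by 1.08 ± 0.14 (adjusted p = 9.9e-05). Rab10, a Rab on the list, rose by 1.01 ± 0.08 (adjusted p = 1.74e-06). At day 7, 5 were higher and 4 lower; Tbc1d4 (1.33 ± 0.11), Sort1 (1.80 ± 0.15) and Rab10 (0.65 ± 0.08) were among the higher ones. Of the 4 lower genes, 1 call remained without replicate 1 of DM3 at day 7 and 2 without replicate 2 of DM1.

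The insulin and AMPK signal list had 8 of 17 genes higher and 2 lower in DM3 than in DM1 at day 2, and 9 higher and 5 lower at day 7, where 37% and 47.7% of all genes were called. Its medians were 0.27 and 0.34 beside -0.02 and 0.00 over all genes. Akt2, the kinase isoform of insulin-driven glucose uptake, rose by 1.49 ± 0.09 at day 7 (adjusted p = 1.1e-07). Prkaa2, the muscle AMPK catalytic subunit, rose by 1.98 ± 0.17 (adjusted p = 1.39e-06). The insulin receptor substrate Irs2 and the PI3-kinase subunit Pik3r1 fell, by 0.67 and 0.63 on the log2 scale. Without replicate 2 of DM1 the day 2 count of higher genes was 4, without replicate 1 of DM3 the day 7 count of lower genes was 2, and by library totals 5 were higher at day 7.

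Further transporters and the steps after hexokinase differed gene by gene. Of 11 other sugar transporter genes 6 were tested, and in DM3 against DM1 at day 7, 2 rose and 2 fell. Slc2a6, a transporter of inner membranes, read 10.1 to 12.1 CPM in DM3 at day 7 against 1.92 to 2.07 CPM in DM1 (2.48 ± 0.46, adjusted p = 0.000904). Slc2a10 fell by 2.61 on the log2 scale (adjusted p = 4.07e-05). Slc2a9, a urate and fructose transporter, was called lower but was near the floor, at 0 and 0.0821 CPM in DM3 against 0.543 and 1.03 CPM in DM1. Of 18 genes of glycolysis after hexokinase, 6 rose and 3 fell, a share near the 47.7% of all genes. Pgam2, the muscle phosphoglycerate mutase, rose by 3.45 ± 0.38 (adjusted p = 3.36e-05). Aldoc, the brain aldolase, fell by 3.25 on the log2 scale (adjusted p = 1.12e-05), and dropped by 3.84 without replicate 2 of DM3. Pfkm, the muscle phosphofructokinase, rose by 1.58 ± 0.10 (adjusted p = 1.24e-07), and Pfkp, the platelet isoform, fell by 0.85 on the log2 scale. By library totals, 8 of the 18 fell.

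Of 12 glycogen genes 10 were tested. Between DM3 and DM1 at day 2, 5 of them were called and each was higher in DM3, against 17.6% of all genes called higher. At day 7, 5 were higher and 2 lower, against 47.7% of all genes called; 1 was lower without replicate 2 of DM1 or replicate 1 of DM3. Pygm, the muscle glycogen phosphorylase, read 0.753 to 0.838 CPM at day 0, 11.0 to 11.6 CPM in DM1 at day 7 and 63.3 to 64.0 CPM in DM3 at day 7, a rise of 2.50 ± 0.15 over DM1 (adjusted p = 7.36e-08). Gys1, the muscle glycogen synthase, rose by 1.45 ± 0.09 (adjusted p = 1.11e-07). It read 231 to 255 CPM in DM2 at day 7, where Pygm was at 2.85 to 3.25 CPM.

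The thioredoxin system, whose thioredoxin TXNIP binds, had 3 of 11 genes higher and 3 lower in DM3 than in DM1 at day 7, near the 47.7% of all genes called, with a median of 0.01. The lower ones included Srxn1 (-1.61 ± 0.14, adjusted p = 1.83e-06), which repairs peroxiredoxins, and Txnrd2 (-1.23 ± 0.11, adjusted p = 3.35e-06), the mitochondrial thioredoxin reductase. Against day 0, Txn1 (thioredoxin) was lower by 1.22 on the log2 scale in DM3 at day 7 (-1.22 ± 0.14, adjusted p = 1.21e-05) and by 1.10 in DM1 (-1.10 ± 0.14, adjusted p = 3.73e-05). In DM2 at day 7 it read 304 to 327 CPM, also under the 444 to 457 CPM of day 0.

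Of 13 genes of phosphofructokinase-2 and the pyruvate switches, 5 were higher and 2 lower in DM3 than in DM1 at day 7, near the 47.7% of all genes called, and by library totals 7 were lower. Pfkfb3, which makes the activator of phosphofructokinase, rose by 1.49 ± 0.13 (adjusted p = 2.34e-06), and the pyruvate dehydrogenase kinase Pdk3 fell by 1.36 on the log2 scale (adjusted p = 8.84e-07). Of 11 genes of amino acid and endoplasmic reticulum stress, 1 was higher and 4 were lower at day 7, and by library totals 9 were lower. Ddit4 rose by 1.37 ± 0.08 (adjusted p = 9.76e-08) and Asns, asparagine synthetase, fell by 1.18 on the log2 scale (adjusted p = 5.1e-06).

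In the DM2 day 7 libraries the neighbouring genes are given as levels only. Ldha, which makes lactate, read 1367 to 1536 CPM against 452 to 502 CPM in DM2 at day 2 and 1236 to 1416 CPM at day 0. Pfkl, the liver phosphofructokinase, read 684 to 773 CPM against 190 to 199 CPM in DM2 at day 2 and 285 to 322 CPM at day 0. Pdk4, a pyruvate dehydrogenase kinase, went the other way, from 113 to 122 CPM at day 2 to 11.2 to 12.8 CPM. At day 0 it read 41.8 to 44.9 CPM. Genes of amino acid and endoplasmic reticulum stress stood high there: Ddit3 (CHOP) read 207 to 233 CPM against 16.4 to 17.8 CPM at day 2 and 11.7 to 12.2 CPM at day 0. The means of Trib3 at day 7, day 2 and day 0 were 213, 5.93 and 15.4 CPM, and those of Atf3 were 88.2, 6.86 and 22.1 CPM. The part of these genes in the low Txnip level was not tested.

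Likeness was measured as Pearson's r of log2 CPM over the 14 libraries among 10632 genes, and it describes libraries that share groups. The genes most like Txnip were Rtn2 (r = 0.981), Hcfc1r1 (0.975), Phf13 (0.974), St6galnac6 (0.974) and Zdhhc1 (0.971). Rtn2 read 36.5 to 39.7 CPM at day 0, 83.1 to 91.7 CPM in DM1 at day 7 and 13.1 to 14.9 CPM in DM2 at day 7. Over the 12 libraries without DM2 at day 7 the 5 values of r were 0.81 to 0.94 and the ranks 111 to 686, so the order of likeness rested on the DM2 day 7 libraries. The genes most like Slc2a1 were Pfkl (0.993), Egln1 (0.989), which encodes an oxygen-sensing prolyl hydroxylase, and Ak4 (0.976), an adenylate kinase. Those most like Slc2a4 were Pstk (0.952), Sdha (0.946) and Irf2bpl (0.944). Without the DM2 day 7 libraries the ranks were 67, 75 and 22 for the genes named beside Slc2a1 and 30, 37 and 32 for those beside Slc2a4.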

How the data were processed

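Poly(A) RNA of 14 C2C12 libraries was sequenced strand-specifically as 50 bp single-end reads, per the labels' protocols. The authors deposited a table of expected counts per gene, which are estimates that need not be whole; per the submitters' processing notes the tools were STAR 2.5.1b, RSEM 1.2.31 and the build GRCm38.p5. Reads that fit more than 1 gene are shared out by RSEM, so genes with near-identical copies, such as Gapdh, are uncertain, and whether counting used strand is not given in the sources used here.

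The deposited values were rounded to integers and fitted in edgeR 4.0.16 (R 4.3.3, limma 3.58.1): filterByExpr left 15973 genes, libraries were scaled by TMM, and 1 model of 7 groups with 7 residual degrees of freedom was fitted, with robust quasi-likelihood tests and Benjamini-Hochberg adjustment at 0.05. Of 15 comparisons, 11 use no DM2 day 7 library and were tested; the other 4 are described. The SE was worked out from the size of the log2 fold change and its F statistic. The script was tested on simulated data. TPM used exon lengths of the mouse Gencode release M21, which held 49412 of 49671 identifiers, while the counts were made on release M12. Coordinates are from M21 and promoters from RefSeq (GRCm38.p6). Depth was 21907617 to 29784885 counts; floors cover counting error only.

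The 10 members and the 12 pathway lists (133 further genes) were chosen with earlier results of these data known. Every member is named; the genes most like Txnip are the 5 with the highest r, and those most like Slc2a1 and Slc2a4 the 3 highest, among genes with a mean of at least 5 CPM (log2 with a prior count of 2). From each list the text names genes among those called with the 2 largest absolute log2 fold changes in a comparison it describes, and may name fewer; the further genes Rab10, Irs2, Pik3r1, Mxd3, Slc2a6, Pfkm, Pfkp, Kctd9, Txn1, Ldha, Ddit3, Myc and the rarely counted Arrdc4, Hk3 and Hkdc1 were chosen after their values were seen. Replicate numbers were checked for pairing. Over 21 pairs of groups the correlation of same-numbered deviations was -0.78 to 0.74 (median 0.03). It was over 0.1 in 3 and under -0.1 in 4 of these pairs of groups, so the numbers were not used as pairs. Alternatives were other scalings, filters, DESeq2 1.42.0, fits of fewer groups, a replicate block and leaving out each library.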

Additional observations from a re-analysis of the deposited data

Results flagged for a closer look

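For 4 genes the difference between DM3 and DM1 changed from day 2 to day 7 by a test of the change itself, the quasi-likelihood F test of edgeR, Benjamini-Hochberg adjusted over all genes. The change was -1.80 for Txnip (adjusted p = 4.15e-05) and -1.25 for Arrdc2 (adjusted p = 0.000112), and it was 0.77 for Slc2a1 (adjusted p = 0.000765) and 0.96 for Hk2 (adjusted p = 0.000585), all on the log2 scale. Without 1 library at a time the ranges were -1.99 to -1.60 for Txnip, -1.31 to -1.18 for Arrdc2, 0.70 to 0.84 for Slc2a1 and 0.81 to 1.12 for Hk2.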

How the results depend on the processing

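With 2 libraries a group, the shared spread of the 7 groups carries the tests, and where 1 library is left out its partner is assumed to vary like the other groups. Slc2a3 and Slc2a4 rest on few counts, and Mlxipl cannot be followed at this depth. Of 53 calls of members, 39 kept direction and call under all alternatives run, and 14 were lost under at least 1; no called value turned its direction. The cause of the losses was not tested.

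The number of members called between DM1 at day 7 and day 2 was 3 and became 5 with library totals alone, with only the compared groups and with DESeq2. Between DM3 and DM2 at day 2, DESeq2 called 1 member in place of 0, and a fit of only the compared groups called 488 of all genes in place of 2602. Scaling by library totals alone turned values that were not called: Arrdc3 in DM3 at day 7 against day 0 (-0.035), Txnip (-0.059) and Arrdc2 (-0.17) in DM3 at day 7 against day 2, and Mlxip in the change over time of DM3 against DM1 (-0.14). A fit of only the compared groups turned Mlxip in DM3 at day 2 against day 0 (-0.020). The same scaling moved the median of all genes by over 0.1 in each comparison with DM2 or DM3 at day 7 against another day or DM1; for DM2 at day 7 against day 2 it went from -0.01 to -0.27.

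Leaving out 1 library at a time, the members called were 3 in each run for DM1 at day 2 against day 0, 3 to 5 for DM3 against DM1 at day 2 and 0 to 1 for DM3 against DM2 at day 2. All genes called ran from 2903 to 3608 (DM1 at day 2 against day 0) and from 1131 to 4177 (DM3 against DM2 at day 2). Values that were not called and turned in at least 1 run had these ranges. Slc2a4: -0.10 to 0.28 (DM1 day 2 against day 0), -0.53 to 0.48 (DM1 day 7 against day 0), -0.62 to 0.38 (DM1 day 7 against day 2) and -0.27 to 0.10 (DM3 against DM2 at day 2). Slc2a3: -0.32 to 0.64 and -0.12 to 1.38 (DM3 day 2 and day 7 against day 0), -0.34 to 1.17 (DM3 day 7 against day 2) and -1.22 to 0.30 (change over time of DM3 against DM1). Mlxip: -0.079 to 0.11 and -0.23 to 0.0086 (DM3 day 2 and day 7 against day 0) and -0.099 to 0.14 (change over time). Arrdc3: -0.41 to 0.079 (DM1 day 7 against day 2), -0.37 to 0.12 (change over time) and -0.26 to 0.056 (DM3 against DM2 at day 2). Hk1: -0.15 to 0.026 (DM3 day 2 against day 0). Txnip: -0.039 to 0.35 (DM3 day 7 against day 2). Arrdc2: -0.22 to 0.048 (DM3 against DM2 at day 2).

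The replicate block, fitted although the numbers did not pair the samples, took away the Arrdc3 call in DM1 at day 7 against day 0 (0.51, adjusted p = 0.0628) and no other call of a member.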
